A study of Mus musculus with 2 samples.

Results

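Divergent promoters are stretches of DNA from which 1 gene runs to the left and another to the right. They were examined here in DNase-seq of mouse brain, an assay in which the enzyme DNase I cuts DNA that is not wrapped in nucleosomes, so that open regulatory DNA appears as a peak of cuts. Members were pairs of protein-coding genes of the GENCODE M21 annotation on chromosomes 1 to 19, a minus-strand gene to the left of a plus-strand gene. The 5′ ends of the 2 gene records lay 0 to 1000 bp apart and pointed away from each other. This gave 735 pairs, which hold 1450 of 20807 protein-coding genes (6.97%). Each region runs from 500 bp outside one 5′ end to 500 bp outside the other. In 40 pairs a gene also belongs to another pair, and the 735 regions merge into 715. Pairs are named here with the minus-strand gene first.

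The series is 1 group of 2 libraries from tissue labelled layer of hippocampus, taken from female B6CASTF1/J mice (a first-generation cross of a C57BL/6 and a CAST strain) aged 8 to 10 months, with no treatment or second genotype named. Each library came from a pool of 2 biosamples, and the labels do not say that the pools came from separate animals, so the spread between the libraries (SD, n = 2) may be technical. Peaks near the 5′ end were found in both libraries at 8 of 8 genes marking hippocampal and cortical neurons, 3 of 3 astrocyte and 2 of 2 oligodendrocyte genes. The same was true of 1 of 3 microglial and 1 of 3 endothelial genes, and of 0 of 3 genes of other organs. The files list 98902 and 130199 peaks and give no read totals, so the depth is unknown.

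Many divergent pairs in mammals share a stretch rich in CpG dinucleotides and lacking a TATA box. From it RNA polymerase starts on both strands at separate initiation sites, with a nucleosome-poor stretch between them. Such pairs are known for housekeeping work, above all DNA repair, mitochondrial function and RNA processing, and paired histone genes for H2A and H2B are a classical case. The factors SP1, NFY, NRF1, YY1 and ETS proteins are known to bind promoters of this kind. A footprint is a short protected stretch within open DNA, where a bound protein keeps DNase I from cutting. The footprints listed by the authors lie partly outside their called peaks.

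The DNA between the 5′ ends is printed for 11 pairs, chosen to show strong, bidirectional, textbook, off-centre and closed regions. The letters are the plus strand of the mm10 (GRCm38) reference assembly from RefSeq, which is not the CAST allele. Capitals mark bases that lay in a footprint of both libraries, and none of these stretches overlaps an annotated exon. Strong pairs with several shared footprints come first.
Uqcrq/Gdf9 (chr11:53430832-53431022): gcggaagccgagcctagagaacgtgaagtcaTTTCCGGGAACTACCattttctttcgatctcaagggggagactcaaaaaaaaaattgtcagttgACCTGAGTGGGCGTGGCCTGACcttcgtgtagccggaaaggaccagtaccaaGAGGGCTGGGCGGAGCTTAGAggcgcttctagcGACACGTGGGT
Aamp/Pnkd (chr1:74284739-74284929): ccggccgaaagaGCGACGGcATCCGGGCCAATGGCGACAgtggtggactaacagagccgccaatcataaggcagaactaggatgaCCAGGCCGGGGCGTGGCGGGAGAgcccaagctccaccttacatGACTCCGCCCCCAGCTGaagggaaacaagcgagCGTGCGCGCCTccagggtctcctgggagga
Nop14/Grk4 (chr5:34660149-34660378): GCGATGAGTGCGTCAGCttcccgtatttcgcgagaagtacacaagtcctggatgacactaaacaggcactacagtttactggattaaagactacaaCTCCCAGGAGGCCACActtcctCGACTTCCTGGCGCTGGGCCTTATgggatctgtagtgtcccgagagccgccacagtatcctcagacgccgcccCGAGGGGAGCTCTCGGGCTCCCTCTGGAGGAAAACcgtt
Cdca2/Kctd9 (chr14:67715842-67715936): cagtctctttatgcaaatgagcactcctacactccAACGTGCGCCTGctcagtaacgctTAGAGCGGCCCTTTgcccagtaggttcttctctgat
Pairs with 2 housekeeping genes, and the pair of the tumour suppressor gene Trp53, follow.
Mrps12/Sars2 (chr7:28741821-28741991): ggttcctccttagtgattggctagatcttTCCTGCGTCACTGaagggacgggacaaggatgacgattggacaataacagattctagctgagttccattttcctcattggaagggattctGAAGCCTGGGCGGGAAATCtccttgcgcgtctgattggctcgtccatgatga
Psmb1/Tbp (chr17:15499752-15499887): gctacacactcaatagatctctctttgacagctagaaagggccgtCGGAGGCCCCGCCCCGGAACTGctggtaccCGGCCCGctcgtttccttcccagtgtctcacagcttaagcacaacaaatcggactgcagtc
Wrap53/Trp53 (chr11:69580256-69580358): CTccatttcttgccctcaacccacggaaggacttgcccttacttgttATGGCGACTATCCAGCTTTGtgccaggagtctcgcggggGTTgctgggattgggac
In Brca1/Nbr1 the highest peak lies outside this stretch, and no footprint of either library lies in it.
Brca1/Nbr1 (chr11:101551956-101552148): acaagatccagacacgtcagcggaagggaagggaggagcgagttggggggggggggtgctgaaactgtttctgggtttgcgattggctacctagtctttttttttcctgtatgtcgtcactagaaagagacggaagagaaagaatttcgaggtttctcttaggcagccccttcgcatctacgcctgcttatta
The histone pairs show an open and a closed region of similar sequence, and Pinlyp/Xrcc1 is a closed region poor in CpG.
Hist1h2bf/Hist1h2ad (chr13:23574197-23574380): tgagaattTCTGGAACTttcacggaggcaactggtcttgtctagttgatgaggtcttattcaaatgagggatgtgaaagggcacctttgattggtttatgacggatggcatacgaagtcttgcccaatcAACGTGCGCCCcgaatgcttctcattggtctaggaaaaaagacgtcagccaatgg
Hist1h2bq/Hist1h2ao (chr13:21810198-21810464): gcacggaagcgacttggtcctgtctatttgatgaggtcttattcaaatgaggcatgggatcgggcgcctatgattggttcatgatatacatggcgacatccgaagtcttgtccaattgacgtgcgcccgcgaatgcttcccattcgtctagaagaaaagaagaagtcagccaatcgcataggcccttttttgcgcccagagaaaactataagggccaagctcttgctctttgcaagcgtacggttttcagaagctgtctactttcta
Pinlyp/Xrcc1 (chr7:24546119-24546288): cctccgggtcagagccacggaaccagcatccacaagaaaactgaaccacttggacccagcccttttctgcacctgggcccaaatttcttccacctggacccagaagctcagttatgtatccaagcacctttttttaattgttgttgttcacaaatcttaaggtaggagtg

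Exact matches of consensus motifs were read in these stretches. In Uqcrq/Gdf9 a GGGCGG match (SP1) and a CACGTG match (E-box) lay wholly in shared footprints. In Aamp/Pnkd this held for 1 of 2 CCAAT matches (NFY) and for its GGGCGG match. The GGGCGG matches of Mrps12/Sars2 and Psmb1/Tbp were covered in the same way, whereas that of Nop14/Grk4 had no base in a shared footprint. None of the 4 CCAAT matches of Mrps12/Sars2 touched a shared footprint. The same was true of every CCAAT match of Wrap53/Trp53, Brca1/Nbr1 and Hist1h2bf/Hist1h2ad. Shared footprints covered 69 of the 191 bases between Uqcrq and Gdf9, 77 of 191 between Aamp and Pnkd, and 20 of 184 between Hist1h2bf and Hist1h2ad. A match is a run of letters, not evidence that a factor binds.

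**Figure D1:**
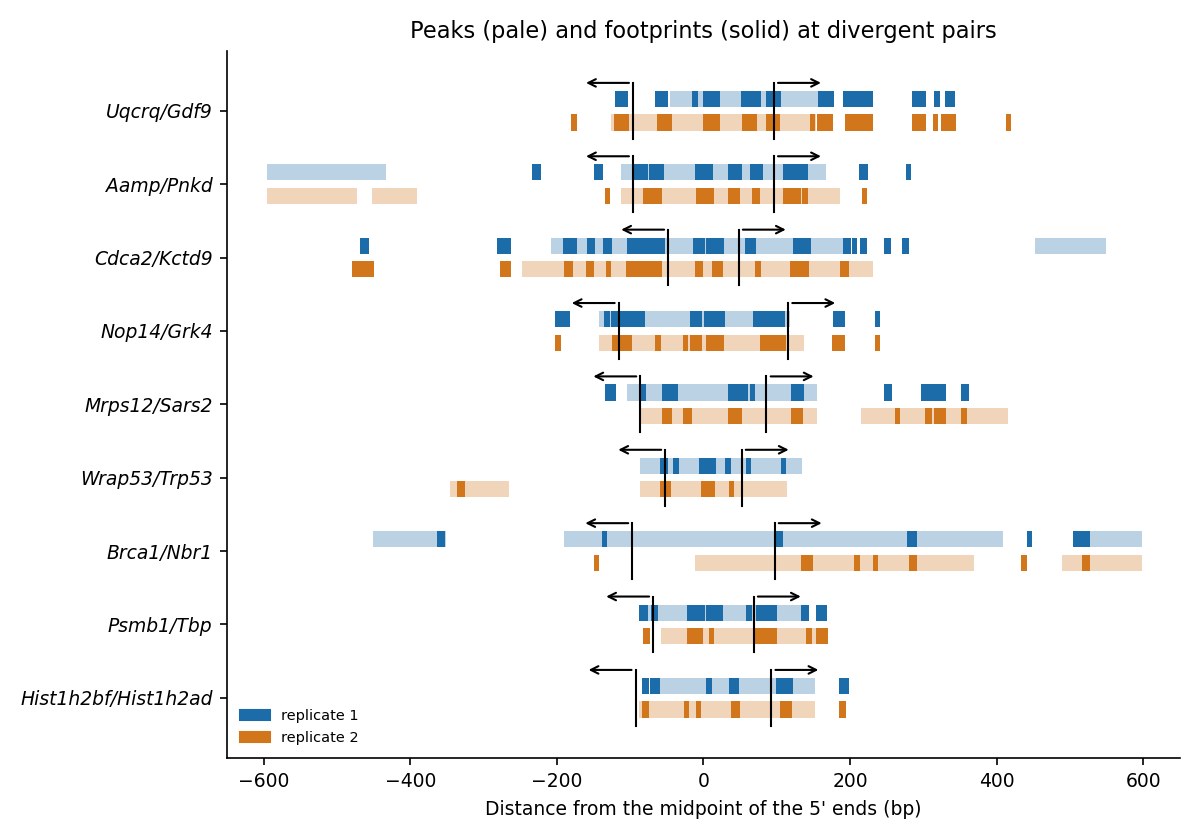
Peaks (pale bars) and footprints (solid bars) of replicate 1 (upper row) and replicate 2 (lower row) at 9 of the printed pairs. The horizontal axis is the distance from the midpoint of the 5′ ends in bp, vertical lines mark the 5′ ends with arrows in the direction of each gene, and peaks are clipped at the edge of the region. The peaks of Uqcrq/Gdf9 lie over the stretch between its 5′ ends, whereas the highest peak of Brca1/Nbr1 is the clipped one at the right edge.

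Nearly all divergent pairs were open. A peak touched 693 of 735 regions (94.3%, Wilson 95% interval 92.4 to 95.7%) in replicate 1 and 695 (94.6%, 92.7 to 96.0%) in replicate 2, a mean of 94.4% ± 0.19 (SD, n = 2). Both libraries had a peak at 691 pairs (94%), and 38 pairs had none in either. Wilson intervals cover counting error only. Because regions differ in width, pair genes and single promoters were compared in windows of 500 bp on either side of each 5′ end. A single promoter is that of a protein-coding gene with no other protein-coding 5′ end within 1000 bp.

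In these equal windows 93.2% of 1450 pair genes had a peak in replicate 1 and 93.7% in replicate 2, against 50.9% and 53.1% of 18126 single promoters and 55.7% and 57.7% of all protein-coding genes. In both libraries it was 92.9% of pair genes, 49.4% of single promoters and 54.3% of all protein-coding genes. The mean difference between pair genes and single promoters was 41.4 percentage points ± 1.28 (SD, n = 2), far above the spread between libraries. The 2 genes of a pair often share 1 peak, so they are not independent. Only 68 of the 735 pairs are over 500 bp apart, so the window of a pair gene mostly also holds the 5′ end of its partner. That of a single promoter holds no other protein-coding 5′ end. How far this alone raises the share of pair genes was not tested. Among single promoters, 832 have an annotated gene of another class, noncoding genes and pseudogenes included, running the other way within 1000 bp upstream. These were open in 80.6% ± 0.85, between the 93.4% ± 0.29 of pair genes and the 50.6% ± 1.60 of single promoters without such a neighbour (SD, n = 2 each).

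CpG content went with most of this difference. The observed to expected CpG ratio within 500 bp had a median of 0.777 at pair genes and 0.498 at single promoters. The highest quintile of all protein-coding genes by this ratio held 40.3% of pair genes and 17.5% of single promoters, and the lowest quintile 1.66% and 22.4%. Within quintiles, the mean difference was 8.80 percentage points ± 0.59 (SD, n = 2), against 41.4 without them. Each quintile counted alike in that mean, whatever its number of pair genes. It was largest in the middle quintile, where 90.3% ± 0.49 of 289 pair genes and 70.4% ± 2.58 of 3588 single promoters were open. In the fourth quintile the shares were 99.2% ± 0 and 88.0% ± 1.84, and in the highest 98.97% ± 0 and 92.8% ± 1.62. In the 2 lowest quintiles, with 24 and 47 pair genes, the differences of 1.48 and 5.15 points were smaller than the spread between libraries of the pair genes (2.95 and 7.52). Single promoters with a divergent noncoding gene stood at 84.1%, 92.2% and 94.5% in the 3 upper quintiles, again between pair genes and all single promoters. In the second lowest quintile they stood higher, at 34.6% of 78, against 26.6% of pair genes and 21.4% of single promoters.

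**Figure D2:**
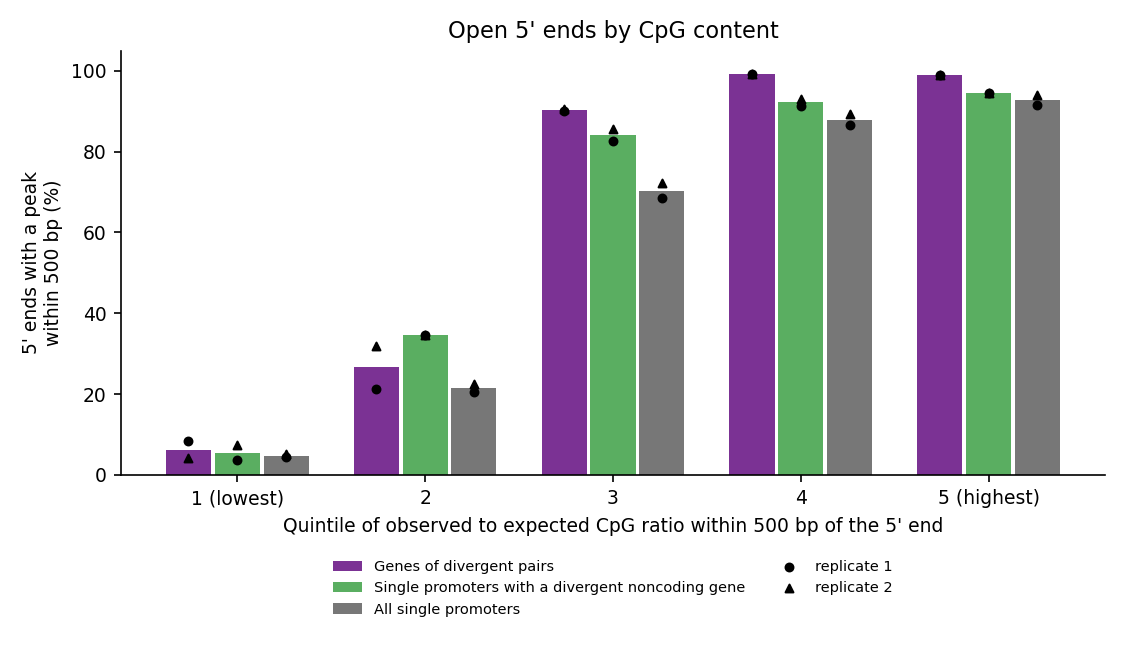
Share of 5′ ends with a peak within 500 bp (%), by quintile of the observed to expected CpG ratio from lowest to highest, for genes of divergent pairs, single promoters with a divergent noncoding gene, and all single promoters. Bars are the mean of the 2 libraries and points the libraries. In the middle quintile pair genes reach 90.3%, against 70.4% of all single promoters.

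Open pairs also had taller peaks. Peak height is the authors' signal, on a scale for which the sources used here give no definition. In bulk tissue, more cells with an open site and more cuts per cell cannot be told apart. The median of the highest peak within 500 bp of an open 5′ end was 3.68 in replicate 1 and 3.95 in replicate 2 at pair genes, against 1.87 and 2.14 at single promoters. This is a log2 ratio of 0.93 ± 0.06 (SD, n = 2), and as the mean within the 3 upper CpG quintiles, a comparison chosen after the data were seen, it was 0.83. By quintile it was 1.26 ± 0.09 in the middle one, 0.75 ± 0.08 in the fourth and 0.48 ± 0.05 in the highest, which holds 585 of the 1450 pair genes (SD, n = 2 each). Single promoters with a divergent noncoding gene had medians of 2.63 and 2.91. Here too most windows of pair genes held the 5′ ends of both genes, and how far this raises their medians was not tested. The strongest peaks were no wider, with a median of 260 bp in replicate 1 and 240 bp in replicate 2 in both classes. At pair genes the midpoint of the highest peak lay a median of 61 and 55 bp upstream of the 5′ end, towards the partner, against 28 bp in both libraries at single promoters. It lay upstream in 79.8% and 80.9% of open pair genes and in 62.9% and 64.0% of open single promoters. A highest peak shared by both genes counts as upstream for both when its midpoint lies between the 5′ ends, and otherwise for 1 of them. The position at pair genes is thus in large part set by this sharing, and cannot be compared directly with that at single promoters.

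Openness mostly sat between the genes. The strongest peak of an open pair had its midpoint between the 5′ ends in 63.1% ± 1.91 of pairs, although that stretch makes up on average 14.4% of the region. The share was 31.5% ± 2.28 in pairs 0 to 50 bp apart and 52.8% ± 2.71 at 51 to 100 bp. There the stretch makes up 3.10% and 6.95% of the region. In the wider groups the share was 74.2 to 83.9%. At single promoters, too, the midpoint of the highest peak lay mostly upstream, in 62.9% and 64.0% in the 2 libraries. In 94.3% ± 0.09 of open pairs 1 and the same peak was the highest for both genes, and 57.3% ± 1.21 of open pairs held a single peak. The first share is in large part built in, since the 5′ ends of 82.0% of pairs lie at most 300 bp apart and their windows overlap widely. A peak touched the downstream side of both genes, counted from the 5′ end itself, in 77.9% ± 0.26 (SD, n = 2 for each value). When a peak was counted by its midpoint, both downstream sides had one in 10.3%, so most of these were edges of a shared peak.

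The distance between the 5′ ends ranged from 0 to 987 bp, with quartiles of 66, 128 and 240 bp. It was at most 100 bp in 307 pairs (41.8%) and at most 300 bp in 603 (82.0%). Most close pairs were spanned by 1 peak, and few distant ones were. The median width of the highest peak, 260 and 240 bp in the 2 libraries, limits the distance that a peak can span. A peak covered both 5′ ends in 94.0% ± 3.99 of open pairs 0 to 50 bp apart, 87.4% ± 2.02 at 51 to 100 bp and 66.1% ± 1.76 at 101 to 200 bp. It was 36.0% ± 0.76 at 201 to 300 bp, 9.02% ± 1.16 at 301 to 500 bp and 0.847% ± 1.198 at 501 to 1000 bp (SD, n = 2 each). The highest peak was the same for both genes in 97.5% ± 1.16 at 301 to 500 bp and in 44.8% ± 6.22 at 501 to 1000 bp. Part of that step is built into the windows, since beyond 500 bp one window no longer reaches the other 5′ end.

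Peak height differed with distance as well. The median signal was 2.81 in replicate 1 and 3.16 in replicate 2 for 126 pairs up to 50 bp apart, and 2.93 and 3.56 for 181 pairs at 51 to 100 bp. At 101 to 200 bp it was 4.22 and 4.41, at 201 to 300 bp 4.64 and 4.90, and at 301 to 500 bp 4.97 and 4.85. At 501 to 1000 bp it was 3.97 and 3.86. Pairs up to 100 bp apart thus had the lowest medians in both libraries, and all groups were above the 1.87 and 2.14 of single promoters. Pair values are the highest peak of the whole region, which widens with distance. Single promoters were read within 500 bp of the 5′ end. Open regions held 1.38 peaks on average at 0 to 50 bp, 1.79 at 301 to 500 and 2.03 at 501 to 1000. How far width alone shifts these medians was not tested. Pairs up to 100 bp apart also had the lower medians in each tertile of pairs by CpG ratio. In the lowest tertile the medians were 2.94 and 3.59 up to 100 bp apart and 4.22 and 4.37 beyond that distance, and in the highest tertile 2.96 and 3.53, and 4.25 and 4.42. Across the 691 pairs open in both libraries, Spearman's rho of mean signal was 0.26 with distance and 0.02 with CpG ratio. The points share libraries, and neighbouring pairs share genes.

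**Figure D3:**
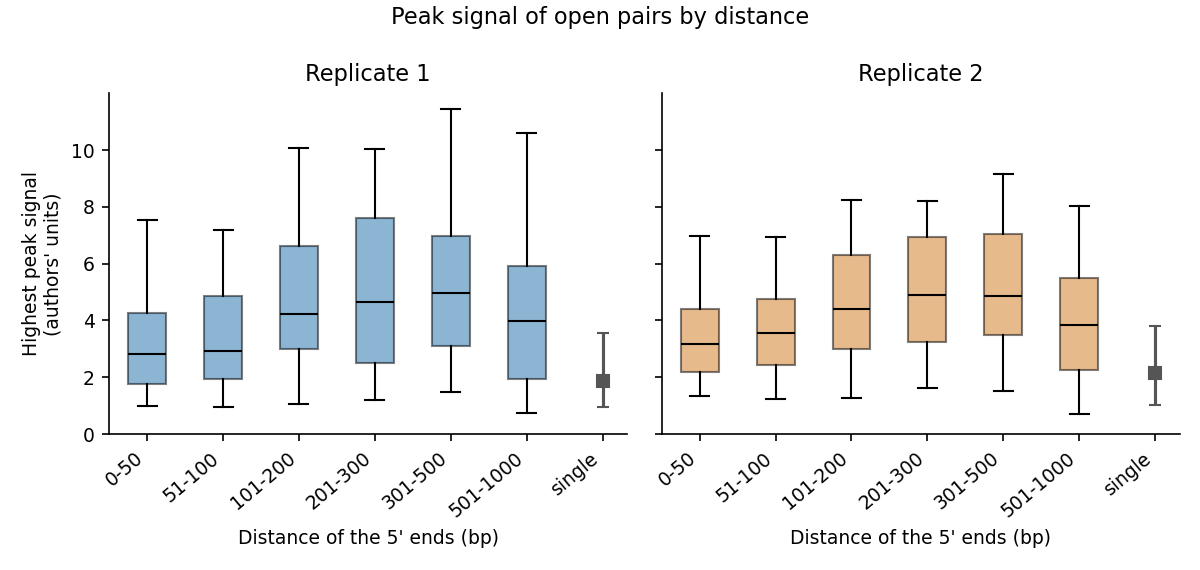
Highest peak signal of open pairs (authors' units) by distance of the 5′ ends in bp, in replicate 1 (left) and replicate 2 (right). Boxes span the quartiles with the median as a line, whiskers the 5th to 95th percentile, and the square with its bar gives the median and quartiles of open single promoters. Pairs were read over the whole region and single promoters within 500 bp of the 5′ end. Medians of pairs 301 to 500 bp apart are 4.97 and 4.85, against 2.81 and 3.16 at 0 to 50 bp.

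Of the 68 pairs over 500 bp apart, 85.3% ± 2.08 (SD, n = 2) were open, the lowest share of the 6 groups. Here the 2 genes could carry separate peaks. Both genes had a peak within 500 bp, but not the same highest one, in 24 open pairs of all distances in replicate 1 and 27 in replicate 2, of which 19 and 18 were over 500 bp apart. In another 15 and 13 open pairs, of which 15 and 12 were over 500 bp apart, 1 gene had no peak within 500 bp. In Cep170/Sdccag8, 2 genes of centrosome and cilium proteins 593 bp apart, Cep170 had 3.84 and Sdccag8 5.23 in replicate 1, and 4.49 and 4.96 in replicate 2. Both ends were similarly open there. In Wrn/Purg, 798 bp apart, the signal was 2.47 at Wrn, a RecQ helicase of DNA repair, and 0.515 at Purg in replicate 1, and 3.49 and 0.533 in replicate 2. Smim7/Tmem38a, 967 bp apart, was also uneven, with 5.94 at Smim7 and 1.23 at Tmem38a in replicate 1, and 6.47 and 1.42 in replicate 2. These 3 pairs were chosen for the text after their values were seen.

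Some tall peaks leaned to 1 gene. In Klhl28/Togaram1 (270 bp apart; 10.02 in replicate 1 and 8.22 in replicate 2) a peak touched the downstream side of Togaram1 alone in both libraries. The same held for Rpusd1 in Chtf18/Rpusd1 (251 bp; 10.6 and 8.02), where Chtf18 belongs to a clamp loader of sister chromatid cohesion. In Prr11/Ska2 (526 bp; 8.66 and 6.79) it was the side of Ska2, a kinetochore gene. In Sptbn4/Blvrb (292 bp; 8.73 and 6.81) it was the side of Blvrb and not that of Sptbn4, a spectrin of the axon initial segment. The peaks of Tom1l2/Drc3 and Ranbp10/Tsnaxip1 (381 bp; 8.89 and 7.29) touched the minus-strand gene alone.

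Regions with the most peaks in both libraries held 3 or 4 in each. Fiz1/Gm44973 (799 bp apart) and Gm45785/Ric8a (626 bp) held 4 peaks in each library, with highest signals of 4.54 and 4.77, and of 2.35 and 2.32. Ric8a encodes a chaperone of G protein alpha subunits. Sharpin/Maf1, Plag1/Chchd7 and Usp5/Cdca3 held 3 in each. Sharpin/Maf1 (183 bp), with a repressor of RNA polymerase III, had 8.85 and 8.11.

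The 1000 bp limit was not a natural edge. Of 10 pairs 901 to 1000 bp apart, 8 were open in each library, and of 11 pairs just outside, 1001 to 1100 bp apart, 10 were open in each. Of 44 pairs 1001 to 1500 bp apart, 81.8% and 84.1% were open in the 2 libraries.

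**Figure D4:**
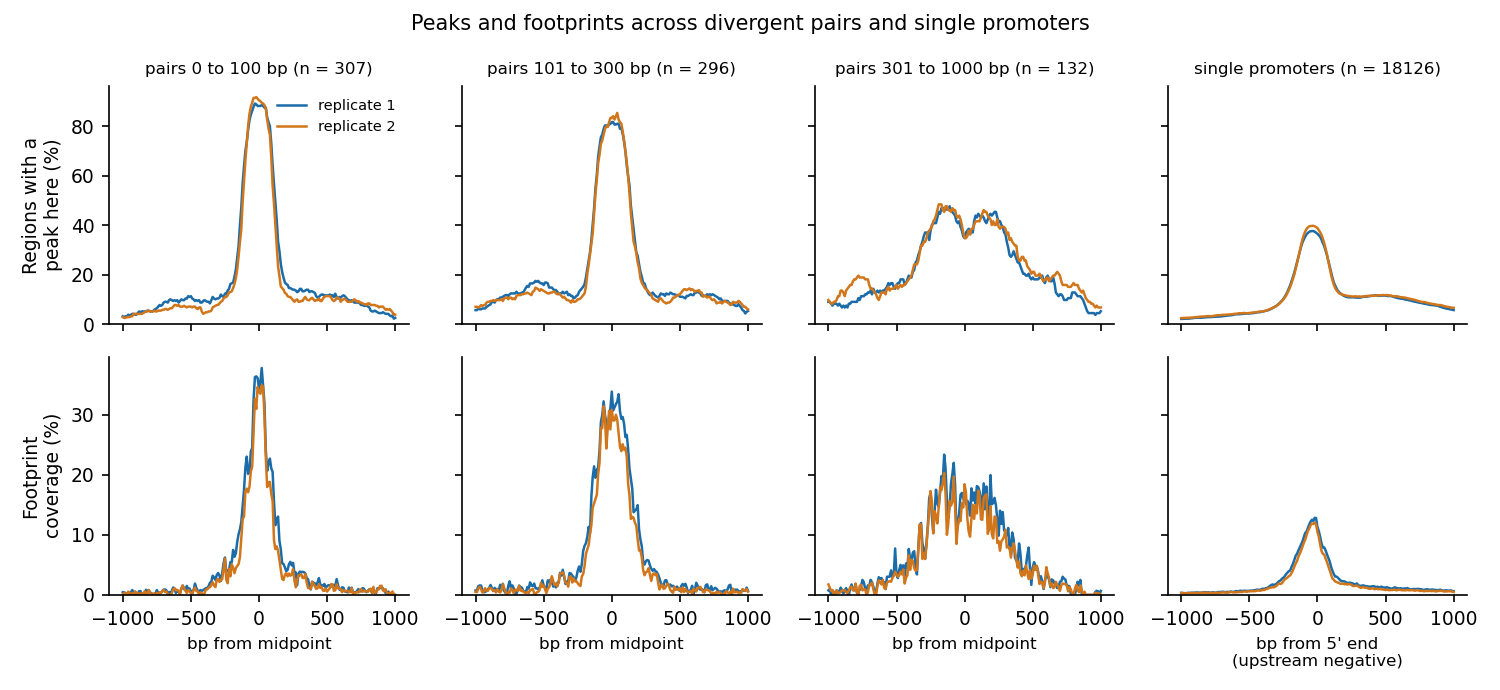
Share of regions with a peak at each position (upper row, %) and share of regions with a footprint there (lower row, %), against distance in bp from the midpoint of the 5′ ends for pairs of 3 distance groups, and from the 5′ end for single promoters. Lines are the 2 libraries. Pairs 0 to 100 bp apart reach 89.3% and 91.9%, pairs 301 to 1000 bp apart have 2 summits with a dip to 34.8% at the midpoint, and single promoters reach 37.7% and 39.8%.

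The libraries ranked the pairs alike. Across 691 pairs open in both, Pearson's r of log2 signal was 0.97 and Spearman's rho 0.97, given as a description of points that share the 2 libraries. The log2 difference of replicate 2 minus replicate 1 had a median of 0.08 and ranged from -0.77 to 0.93. The strongest peaks of the libraries overlapped in 678 pairs (98.1%). Only 6 pairs were open in a single library, all at low signal. Rnf151/Rps2 and Sox6/1110004F10Rik had 0.418 and 0.261 in replicate 1 and no peak in replicate 2. Obsl1/Inha, Tssk3/Fam229a, Dok1/Loxl3 and Kirrel2/Nphs1 had 0.493, 0.549, 0.612 and 1.10 in replicate 2 and no peak in replicate 1.

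The highest signal of all pairs was at Hjurp/Trpm8, with 5′ ends 28 bp apart (chromosome 1, 88277633 and 88277661), which had 16.4 in replicate 1 and 19.2 in replicate 2. Hjurp encodes the chaperone that places the centromere histone CENP-A, and Trpm8 the cold and menthol channel of sensory neurons. One peak of 240 bp or less covered both ends. Aamp/Pnkd (192 bp apart) had 14.6 and 10.3, with a peak from 74284721 to 74285000 on chromosome 1 in replicate 1. Pnkd is named for a human movement disorder, paroxysmal nonkinesigenic dyskinesia. Tom1l2/Drc3 (424 bp) had 14.01 and 10.9, and joins a vesicle sorting adaptor to a regulator of ciliary dynein. Cdca2/Kctd9 (96 bp) had 13.1 and 9.22, and Cdca2 directs a phosphatase to mitotic chromosomes. These genes have quite different roles within each pair.

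The next pairs included genes of protein folding and ribosome assembly. Rita1/Ddx54 (150 bp), which pairs a Notch pathway regulator with an RNA helicase, had 12.3 in replicate 1 and 10.8 in replicate 2. Ccdc151/Prkcsh (172 bp) had 12.3 and 9.17, where Prkcsh is a subunit of glucosidase II, an enzyme of glycoprotein folding. Nop14/Grk4 (231 bp) had 12.1 and 9.57, where Nop14 serves assembly of the small ribosomal subunit and Grk4 is a receptor kinase. Hsp90b1/Ttc41 (302 bp), with the endoplasmic reticulum chaperone GRP94, had 12.03 and 9.93. Cep57/Fam76b (609 bp), with a centrosome protein gene, had 11.9 and 10.5. Alg12/Creld2 (328 bp), with a mannosyltransferase of N-glycan synthesis and a gene of the endoplasmic reticulum stress response, had 11.6 and 9.62. A signal above 10 in both libraries was found at 6 of the 735 pairs.

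**Figure D5:**
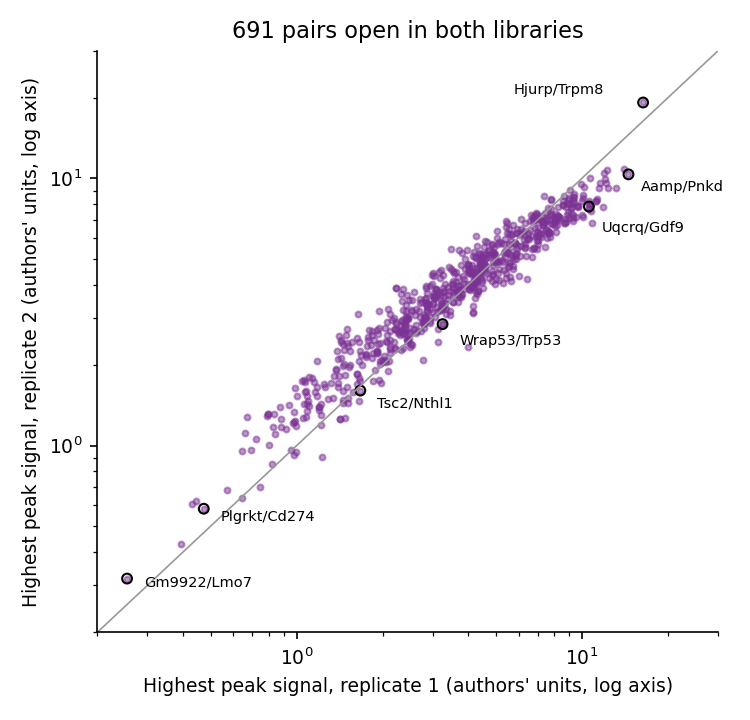
Highest peak signal of the 691 pairs open in both libraries, replicate 1 on the horizontal and replicate 2 on the vertical axis (authors' units, both axes log), with the line of equal values and 7 pairs circled and named. Points follow the line from Gm9922/Lmo7 (0.254 and 0.318) to Hjurp/Trpm8 (16.4 and 19.2).

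All 10 pairs from a list of textbook examples that met the rule were open in both libraries, as were 94% of all pairs. Uqcrq/Gdf9 (192 bp; chromosome 11, 53430831 and 53431023) had 10.6 in replicate 1 and 7.84 in replicate 2. Uqcrq encodes a subunit of respiratory complex III and Gdf9 a growth factor of the oocyte. The peak covered 53430881 to 53431100 in replicate 1 and 53430801 to 53431080 in replicate 2, and so reached over both 5′ ends in replicate 2 alone. A peak signal at the Gdf9 5′ end is therefore also that of its neighbour, and the share of each gene cannot be told apart. Atm/Npat (307 bp), a DNA damage kinase and an activator of histone genes, had 8.77 and 7.82. Mcm4/Prkdc (466 bp), a replicative helicase subunit and the catalytic subunit of DNA-dependent protein kinase, had 7.80 and 7.28.

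Several textbook pairs were weaker. Mrps12/Sars2 (172 bp), which joins a mitochondrial ribosomal protein to the mitochondrial seryl-tRNA synthetase, had 7.20 and 6.97. Wrap53/Trp53 (104 bp), a telomerase trafficking factor and p53, had 3.25 and 2.85, below the median of open pairs (3.73 and 3.97). Timm23/Parg (51 bp), a mitochondrial import channel and an enzyme that removes poly(ADP-ribose), had 1.97 and 1.72. Tsc2/Nthl1 (50 bp), a growth regulator and a DNA repair glycosylase, had 1.67 and 1.61. In the 3 weakest of these, a peak spanned both 5′ ends in both libraries.

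Brca1/Nbr1 (194 bp; chromosome 11, 101551955 and 101552149) was unlike the others. Brca1 acts in DNA repair by homologous recombination and Nbr1 is an autophagy receptor. The highest peak, 10.1 in replicate 1 and 7.16 in replicate 2, lay inside Nbr1, from 101552561 to 101552820 and from 101552541 to 101552860. The highest peak within 500 bp of the Brca1 5′ end had 2.53 and 4.08. In replicate 1 this peak spanned both 5′ ends, and in replicate 2 it did not reach that of Brca1. No footprint lay between the 5′ ends in either library, as the printed sequence without capitals shows. In Txndc9/Eif5b and 2810408A11Rik/Neurl4, also under 200 bp apart, the highest peak likewise lay outside the stretch between the 5′ ends in both libraries, inside Txndc9 and inside Neurl4. Both were noted after their values were seen.

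Gene groups, chosen with earlier results of these data known, differed in how many of their genes lie in divergent pairs. Of 67 replication-dependent histone genes, 40.3% were in pairs, followed by DNA repair and replication (30.1% of 163), RNA polymerases and general transcription factors (24.2% of 99) and mitochondrial genes (22.4% of 201). Splicing and RNA processing had 21.5% of 149, against 6.97% of all protein-coding genes. The share was 1.14% of 263 genes for neuronal channels, receptors and synaptic proteins and 0.134% of 1495 olfactory, vomeronasal and taste receptor genes. None of the 206 keratin and barrier genes and none of the 124 genes of the cytochrome P450 and transporter list was in a pair. These shares describe the annotation and not this tissue.

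Pairs of the housekeeping groups were open almost without exception. Both libraries had a peak at 50 of 51 DNA repair pairs, 44 of 44 mitochondrial, 32 of 32 splicing, 24 of 24 polymerase, 15 of 15 chaperone, 14 of 14 vesicle transport, 7 of 7 proteasome and 5 of 5 tRNA synthetase pairs. Among all pairs it was 691 of 735 (94%), so these counts lie near the background. Their signals spread widely. The lowest mean of the 2 libraries was 0.887 in the DNA repair group, 1.04 in vesicle transport, 1.10 in splicing and 1.34 in the mitochondrial group. The median of the DNA repair pairs was 3.13 in replicate 1 and 3.801 in replicate 2, below the 3.73 and 3.97 of all pairs, and that of the chaperone pairs 5.32 and 5.27. Pairs at the upper end of their groups included Bckdha/Exosc5, with an RNA exosome subunit (9.57 and 7.88), and Mrps18b/Ppp1r10 (9.72 and 7.78). Psmb1/Tbp, a proteasome subunit beside the TATA-binding protein, had 5.07 and 5.67, and Mrpl32/Psma2 had 5.81 and 5.74. Dnajb4/Fubp1, with a cochaperone gene, had 7.78 and 8.34. Gtf3c1/D430042O09Rik, with a subunit of the polymerase III factor TFIIIC, had 9.25 and 8.03, and Cntrob/Trappc1, with a subunit of the TRAPP vesicle tethering complex, 7.25 and 6.94. Of zinc finger pairs 17 of 18 were open in both, led by Zfp654/Cggbp1 (11.5 and 9.17), and Zfp558/Mbd3l1 was closed. Of cytosolic ribosomal protein pairs 7 of 8 were open in both, led by Med22/Rpl7a (6.76 and 7.18) and Rpl9/Lias (6.48 and 5.99).

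Within the same groups, single promoters were mostly open too. In the DNA repair group 47 of 49 pair genes (95.9%) and 90 of 98 single promoters (91.8%) were open, with median signals of 3.17 and 2.80. For splicing genes all 32 pair genes and 89 of 103 single promoters (86.4%) were open, with median signals of 5.001 and 3.62. For chaperones all 16 pair genes and 48 of 62 single promoters (77.4%) were open, with medians of 4.48 and 2.77. Openness alone went the other way for replication-dependent histones, with 21 of 27 pair genes (77.8%) and 35 of 39 single promoters (89.7%) open. Their median signal was still higher at pair genes, at 3.29 and 2.28. For cytosolic ribosomal protein genes the median signal went the other way. There 7 of 8 pair genes (87.5%) and 58 of 64 single promoters (90.6%) were open, with medians of 3.56 and 4.41. The remaining pair gene, Rps2, had a peak in replicate 1 alone, so openness gives no direction in this group. No test was made between these groups.

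Neuronal genes were rare in pairs, and their 3 pairs were open in both libraries, as were 94% of all pairs. Nlgn2/Tmem256 (730 bp apart), with the adhesion protein neuroligin 2 of inhibitory synapses, had 7.76 in replicate 1 and 6.26 in replicate 2, and 14 of 17 footprints of replicate 1 and 13 of 13 of replicate 2 were shared. In replicate 2 the highest peak within 500 bp of the Nlgn2 5′ end had 0.644, so there the tall peak lay on the Tmem256 side. In replicate 1 the tall peak reached into the 500 bp of Nlgn2. Tmem126b/Dlg2 (671 bp), with the postsynaptic scaffold PSD-93, had 8.06 and 7.11, with its strongest peak at 90475961 to 90476240 on chromosome 7 in both libraries. That peak covers the Tmem126b 5′ end at 90476001 and not the Dlg2 5′ end at 90476672. Grik5/Zfp574 (221 bp), with a kainate receptor subunit, had 0.830 and 1.31. Of 256 single promoters of this group, 139 (54.3%) were open in both libraries, with a median signal of 1.02.

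The pairs of 3 genes known for use outside the brain held a peak, although not always near that gene. So did 94% of all pairs in both libraries, so these 3 are no exception among pairs. Vmn1r4, a vomeronasal receptor, lies 83 bp from Nt5c3, a nucleotidase gene, and the pair had 4.39 in replicate 1 and 4.71 in replicate 2, with 1 peak spanning both 5′ ends. Of 1481 single promoters of chemosensory receptors, 10 were open in both libraries (0.675%). Tas1r1, a taste receptor gene 753 bp from Nol9, shared a region with a signal of 1.43 and 2.47, but that peak lay on the Nol9 side and outside the 500 bp of Tas1r1. Spink10, of a family of protease inhibitors, lies 216 bp from the ubiquitin ligase gene Fbxo38, and the pair had 7.62 and 7.74. Openness near such a gene is no measure of its use, and expression was not measured.

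The 38 closed pairs were mostly poor in CpG. Their median ratio was 0.305, against 0.776 at pairs open in both libraries, and 27 of 38 were under 0.5, against 17 of 691. Members include genes of other tissues, such as Col4a4/Col4a3 (basement membrane collagens), Duox2/Duoxa2 (a peroxide-making oxidase and its maturation factor), Klc3/Ckm (with muscle creatine kinase), Ifit1bl2/Ifit1 (interferon-induced genes) and Smyd1/Cd8b1. Pecam1/Milr1, with the endothelial gene used above as a marker, was closed as well. The pairs of Aspa, Cspg4, Smyd1, Pecam1 and Nisch were picked after their values were seen. In 11 closed pairs a gene had a peak at another annotated start, as Xrcc1 of Pinlyp/Xrcc1, Trim28 of Slc27a5/Trim28 and Nisch of Nisch/Sema3g did. For those the gene record begins at a start other than an open one. Of Aspa, an enzyme of oligodendrocytes, both pairs were closed, and so was Odf3l1/Cspg4, with a gene of oligodendrocyte precursors.

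Closed pairs with high CpG were few. The 2 with the highest ratio were Hist1h2bq/Hist1h2ao (0.923) and Hist1h2ap/Hist1h2br (0.906), followed by N4bp3/D930048N14Rik (0.803), Hist1h2ba/Hist1h2aa (0.709), Gm10447/Shroom1 (0.665) and Tradd/Fbxl8 (0.628). Klc3/Ckm (0.619) and Duox2/Duoxa2 (0.556) completed the 8. Of 14 histone pairs 11 were open in both libraries, with Hist1h2bf/Hist1h2ad at 5.13 and 4.17 and Hist1h2ag/Hist1h2bj at 3.42 and 4.65. Histone genes exist in near-identical copies, and how the authors placed reads that match several copies is not stated in the sources used here, so the closed state of 3 histone pairs is uncertain. The footprint of Hist1h2bf/Hist1h2ad that begins at base 130 of the printed stretch holds the run ACGTGCGCCC, which also begins at base 119 of closed Hist1h2bq/Hist1h2ao. On either strand this run lies in the promoter window (250 bp upstream to 50 bp downstream) of 0.414% of pair genes, 0.132% of single promoters and 0.144% of all protein-coding genes. It was picked after the sequences were seen.

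A signal under 1 in both libraries was found at 14 open pairs. The weakest was Gm9922/Lmo7 with 0.254 in replicate 1 and 0.318 in replicate 2. Plgrkt/Cd274, with the immune checkpoint ligand PD-L1, had 0.473 and 0.580 and no footprint shared by both libraries. Sgce/Peg10, an imprinted pair active on the paternal copy, had 0.818 and 0.851 at a CpG ratio of 0.698, and was chosen after its values were seen. In replicate 1 its highest peak spanned both 5′ ends, and in replicate 2 the highest lay inside Peg10. H2-T22/Gm6034, with a gene of the major histocompatibility complex, had 1.88 and 1.92.

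Footprints were densest between the 5′ ends. They covered 34.4% of peak bases there in replicate 1 and 31.3% in replicate 2, against 20.2% and 18.1% of peak bases outside the 5′ ends. Over whole pair regions they covered 24.1% ± 1.56, against 18.9% ± 1.93 in single promoter windows (SD, n = 2 each), a ratio of 1.27 ± 0.05. Upstream of single 5′ ends it was 22.98% ± 2.01 and downstream 14.6% ± 1.86. The ratio turned to 0.81 when peaks were compared within quintiles of signal, a comparison chosen after the data were seen. In the highest quintile of signal the shares were 37.0% in pair regions and 36.4% at single promoters in replicate 1, and 32.3% and 33.0% in replicate 2. In the second quintile they were 4.64% and 8.34%, and 3.48% and 6.09%. The higher share of footprint bases in pair regions thus does not hold among peaks of like signal.

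Footprints between the 5′ ends recurred more often than those outside. Of 2135 footprints between them in replicate 1, 77.0% (Wilson 95% interval 75.2 to 78.7%) overlapped one of replicate 2, and of 2155 in replicate 2 it was 78.8% (77.0 to 80.5%). Outside the 5′ ends it was 56.0% and 70.5%, and at single promoters 56.6% and 65.3%. These footprints were counted whether or not they lay in a peak. Peaks covered 62.3% ± 0.71 of bases between the 5′ ends, 21.9% ± 1.15 outside and 16.4% ± 0.23 in single promoter windows (SD, n = 2 each). Pairs with the most shared footprints were B3galt6/Sdf4, with 18 of 22 footprints of replicate 1 and 19 of 26 of replicate 2 shared, and Cryzl1/Itsn1, with 16 of 23 and 15 of 18. B3galt6 serves synthesis of glycosaminoglycan chains and Itsn1 endocytosis at synapses. Cbx5/Hnrnpa1, a heterochromatin protein and an RNA-binding protein, had 15 of 20 and 15 of 18. Nfya/Oard1, with a subunit of the CCAAT-binding factor NFY itself, had 14 of 19 and 13 of 16.

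Motif content of pair genes differed from that of single promoters. In windows from 250 bp upstream to 50 bp downstream, the ETS letters CCGGAAGT on either strand lay at 13.3% of pair genes, 3.89% of single promoters and 4.801% of all protein-coding genes. For GGGCGG (SP1) the shares were 69.0%, 41.1% and 43.7%, and for AAGATGGCG (YY1) 5.45%, 1.31% and 1.70%. For GCATGCGC (NRF1) they were 6.90%, 3.10% and 3.45%, and for TGACGTCA (CRE) 4.62%, 2.22% and 2.43%. The letters TATAAA of the TATA box went the other way, at 4.14% of pair genes, 13.7% of single promoters and 12.7% of all. The remaining motifs differed less as a ratio, with CCAAT (NFY) at 43.5%, 38.5% and 38.6%, CACGTG (E-box) at 11.6%, 7.48% and 7.82%, and ACTACAATT (ZNF143) at 0.759%, 0.508% and 0.524%. No motif contains another, and both strands were searched. Windows of close partners overlap, so 1 match can count for both genes.

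Among open promoters ETS letters lay at 14.2% of pair genes and 7.13% of single promoters, and TATAAA at 3.79% and 7.11%. ETS letters lay at 12.8% of pair genes and 4.96% of single promoters in the middle CpG quintile, 16.6% and 7.79% in the fourth, and 11.97% and 7.05% in the highest. The SP1 shares of pair genes and single promoters were 64.7% and 51.1%, 70.5% and 69.4%, and 74.7% and 77.6% in the same quintiles, so that they reversed in the highest. NRF1 letters lay at 5.54% of pair genes and 3.15% of single promoters in the middle quintile, 7.92% and 6.06% in the fourth, and 7.35% and 6.61% in the highest. CRE letters had 2.08% and 2.62%, 5.54% and 3.001%, and 5.64% and 4.81%, so that they were reversed in the middle quintile. YY1 letters had 3.46% and 1.39%, 6.93% and 2.27%, and 5.81% and 3.12%, and TATAAA 4.84% and 9.09%, 4.36% and 7.03%, and 3.42% and 5.88%. The higher share of ETS and YY1 letters at pair genes and the lower share of TATAAA were thus present in each of these 3 quintiles, and that of NRF1 was small in the highest.

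Motif matches inside peaks were often footprinted. A footprint overlapped 54.3% ± 1.59 of matches to the 9 motifs in pair regions and 47.1% ± 2.96 at single promoters. NRF1 matches had 88.1% ± 1.23 and 80.5% ± 0.71, and CRE matches 84.7% ± 1.41 and 87.1% ± 3.25. SP1 matches had 65.4% ± 2.61 and 52.4% ± 4.36, ETS matches 44.7% ± 4.35 and 47.2% ± 4.17, and NFY matches 32.6% ± 0.25 and 29.2% ± 0.12 (SD, n = 2 each). In peaks of the 2 highest quintiles of signal, all motifs together had 61.1% ± 2.22 in pair regions and 61.5% ± 2.08 at single promoters, SP1 matches 78.2% ± 3.91 and 74.5% ± 4.13, and NRF1 matches 93.0% ± 1.66 and 86.5% ± 0.88. Taken within each library, pair regions minus single promoters, the differences there were -0.42 points ± 0.14 for all motifs, 3.62 ± 0.23 for SP1 and 6.50 ± 0.78 for NRF1 (SD, n = 2 each). ETS and E-box matches were lower in pair regions in both libraries, at -3.29 ± 1.25 and -6.53 ± 3.55. TATAAA matches were higher in both, at 6.58 ± 8.97, and the remaining motifs differed in sign between libraries. In peaks of all heights the differences for all motifs, SP1 and NRF1 were 7.17 ± 1.37, 13.002 ± 1.75 and 7.65 ± 1.93 points.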

How the data were processed

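Overlaps were computed from 2 DNase-seq libraries. Per the deposited notes, the authors called peaks and footprints in each library separately from its mm10 alignments. Aligner, caller and footprint software: not given in the sources used here. How reads of the CAST alleles aligned to mm10 was not tested. The authors' height of a deposited peak is a signal of at least 0, on an unstated scale. Each footprint the authors deposited has 0.01 as its p-value threshold, and their false discovery rates (q-values) cover intervals below 0.05. The larger of 2 deposited peak lists was used, and the smaller as an alternative.

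A region was open where at least 1 bp of a peak lay in it. Peaks can overlap each other. A pair gene or single promoter was given the highest peak within 500 bp. A footprint was shared where it overlapped one of the other library by at least 1 bp, in a peak or not. CpG content came from the mm10 sequence, in quintiles of all protein-coding genes. Values are the mean ± SD of the 2 libraries, with Wilson 95% intervals for counting error. With 1 group, no test between groups was made, and regions of a library are not replicates. Depth is unknown.

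The members, the 17 gene groups and the 9 motifs were chosen with earlier results of these data known. The text names the 10 pairs of highest signal, textbook pairs (some are not reported here), 8 closed pairs of highest CpG, and pairs open on the downstream side of 1 gene, with most shared footprints or most peaks, and leading or closed in their group, not all of which are printed. Of the motifs, NRF1, YY1 and ZNF143 were shortened after the data were seen. Pairs said to be chosen after their values were seen are additions. The functions were tested on simulated data. Python 3.11.15, numpy 2.4.6, pandas 2.3.3 and scipy 1.17.1 were used.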

Additional observations from a re-analysis of the deposited data

Results flagged for a closer look

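A list not used in the comparisons above, the deposited false discovery rate per base interval, held signal at closed pairs. Of the 38 pairs with no peak in either library, 2 had more than 3 bases listed below 0.05 in replicate 1, 1 had so in replicate 2 and 1 in both. The pair in both was Pinlyp/Xrcc1, with 41 bases in replicate 1 and 63 in replicate 2 and lowest rates of 3.49e-05 and 0.000219. Stap2/Mpnd was the other pair of replicate 1. Open pairs had a median of 894 and 943 such bases. The cause was not tested.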

How the results depend on the processing

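With the smaller peak list, open pairs were 92.8%, the difference to single promoters 45.5 points and 12.6 within CpG quintiles, the log2 signal ratio 0.76, the same highest peak 94.4%, both downstream sides 75.2%, the footprint ratio 1.15 and footprinted motif matches 55.9%. With the 50000 highest peaks these were 93.1%, 47.3, 13.6, 0.70, 94.5%, 74.7% and 1.16, the last for the footprint ratio. With peak midpoints the same highest peak fell to 92.0% and both downstream sides to 10.3%. With 250 bp windows open pairs, the same highest peak and both downstream sides were 93.9%, 89.4% and 73.9%. With 5′ ends at most 500 bp apart, open pairs were 95.4%, the difference 43.3 points, the same highest peak 98.8% and both downstream sides 80.0%. Both downstream sides were 78.1% with each gene in its closest pair. Against single promoters without a divergent gene the difference was 42.8 points. Added after the data were seen, the signal ratio over the 3 upper CpG quintiles was 0.83, and the footprint ratio within quintiles of signal was 0.81, which is reversed. The other 29 values moved by less than the spread between libraries. Leaving out a library, which with 2 libraries moves a mean by less than their SD by construction, the ranges were 94.3 to 94.6% open pairs, 40.5 to 42.3 and 8.39 to 9.22 points, a log2 ratio of 0.89 to 0.98, 94.2 to 94.4% same peak, 77.7 to 78.1% both sides, 61.8 to 64.5% strongest between, a footprint ratio of 1.24 to 1.31 and 53.2 to 55.4% of matches. Pair genes and single promoters were compared inside each library.

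The peak files give no read counts, so how many closed pairs lie below detection is unknown. Gene records mark 1 start per gene, and 11 closed pairs had a gene open at another start. Single promoters include genes silent in brain, and expression was not measured.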
